A study of Mus musculus with 5 samples.

Results

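Genomic sites that carried both p300 and c-Jun in TGF-β1-treated bone marrow stromal cells, and neither once pioglitazone was added, were examined. The peaks of all 4 deposited lists were merged into sites wherever they overlapped by at least 1 bp. A site was included when it held a p300 peak and a c-Jun peak from the libraries under TGF-β1 alone and no peak of either factor from the libraries that also received pioglitazone. This left 1888 of 44718 merged sites. The sites were thus chosen by the presence and absence of listed peaks in both treatments, so their loss is a description and was not tested.

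p300 is a histone acetyltransferase that does not bind DNA by itself and is brought to active enhancers and promoters by transcription factors. c-Jun is a subunit of AP-1, a dimeric factor that recruits p300 and acts downstream of TGF-β1 in the production of fibrous matrix. Pioglitazone, of the thiazolidinedione class, is an agonist of the nuclear receptor PPARγ, which is known to restrain AP-1-driven genes in several cell types when it is ligand-bound. The comparison addressed here asks at which co-bound sites both factors were listed without the agonist and neither with it.

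The cells were of MS5, an established stromal line from mouse bone marrow, at passage 11. The libraries with pioglitazone came from cells given TGF-β1 at 10 ng/mL together with pioglitazone at 20 ng/mL for 5 h, and the libraries without it from cells given TGF-β1 at 10 ng/mL for 5 h. Every ChIP group thus carried TGF-β1, and no untreated cells were among the samples used here. There was 1 library for each antibody and treatment, so differences have no replicate check and carry no p-value. The labels describe the cells as stromal, but peak lists hold no expression values, so this was not checked against marker genes, and MS5 stands for the marrow stroma as a single line grown in culture. The p300 lists held 21994 peaks with pioglitazone and 31466 without it, and the c-Jun lists 13325 peaks with pioglitazone and 17044 without it. The deposited score is 1 for every peak and gives no height, so a listed peak shows only that the peak passed the authors' caller. Sequencing depth is unknown. Fewer cells with an occupied site and weaker occupancy in every cell cannot be told apart.

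The words lost, kept and gained describe the lists. With pioglitazone, 48.5% of all 31465 sites with a p300 peak under TGF-β1 alone had no p300 peak, and 53.7% of all 17044 sites with a c-Jun peak had no c-Jun peak. Of the 11958 sites co-bound under TGF-β1 alone, 1888 lost both factors, 15.8% (95% interval 15.1 to 16.5). This share is fixed by the rule and nothing is read from it alone. A further 3216 co-bound sites kept p300 and lost c-Jun, 1092 kept c-Jun and lost p300, and 5762 kept both. The sites losing both made up 6.0% of the p300 peaks and 11.1% of the c-Jun peaks listed under TGF-β1 alone. Intervals here and below cover counting error only.

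The opposite pattern was rarer in the lists as deposited. Of the 7576 sites co-bound with pioglitazone, 313 held no peak of either factor under TGF-β1 alone, 4.13% (3.69 to 4.60). The lists with pioglitazone are shorter, and much of this contrast went with their length. When the longer list of each antibody was shortened from its end to the length of the other, 887 sites lost both, 9.65% (9.05 to 10.3) of the co-bound sites under TGF-β1 alone, and 7.20% (6.63 to 7.81) of the co-bound sites with pioglitazone had gained both.

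Each of the 1888 sites held exactly 1 p300 peak and 1 c-Jun peak. The sites were 249 to 495 bp wide, with a median of 296.5 bp. The centres of the p300 and c-Jun peaks lay a median of 48.5 bp apart at these sites (46 to 52), against 35 bp (34 to 36) at sites that kept both. The centres were within 25 bp of each other at 28.9% of sites losing both and at 38.3% of sites that kept both. This spacing difference was not separable from list position. Within 10% steps of the p300 and c-Jun lists, the share with centres within 25 bp at sites losing both minus that at sites keeping both was -0.61 percentage points (-3.77 to 2.55). With all 4 lists shortened to their upper 50% of rows it was 6.27 points (1.27 to 11.3), so its sign depended on the rows used.

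Row order served as a stand-in for peak strength. No source states how the rows were sorted. In stretches of both lists under TGF-β1 alone, positions rose with coordinate along a chromosome, and different chromosomes took different parts of a stretch. Inside such a stretch, position follows chromosome and coordinate and cannot rank strength. Steps and cuts of the lists can divide these stretches by chromosome, and the effect on the comparisons below was not tested. At sites that kept both factors, the row order with pioglitazone went with the row order without it, with Spearman's rho 0.855 for p300 and 0.721 for c-Jun across 5762 sites, as a description over sites that share their libraries. Positions are given as the percentage of rows from the top of a list under TGF-β1 alone.

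Sites that lost both factors stood low in both lists. Their median position was 61.7% in the p300 list (59.98 to 63.0) and 66.3% in the c-Jun list (64.5 to 68.1). Sites that kept p300 and lost c-Jun had medians of 29.2% for p300 and 51.5% for c-Jun. Sites that kept c-Jun and lost p300 had medians of 49.3% for p300 and 45.9% for c-Jun. Sites that kept both had medians of 16.2% for p300 and 27.1% for c-Jun. Each single-loss class therefore stood lowest in the list of the factor it lost when set against the other single-loss class, and the sites losing both stood below both classes in both lists. The distributions overlapped widely. The central 90% of sites losing both ran from 20.6% to 95.1% of the p300 list, and that of sites keeping both from 1.15% to 66.7%. The 313 sites that gained both also stood low, in the lists with pioglitazone. Their medians there were 64.3% for p300 (58.9 to 68.4) and 59.3% for c-Jun (54.7 to 65.2). A low position was thus not particular to loss.

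**Figure D1:**
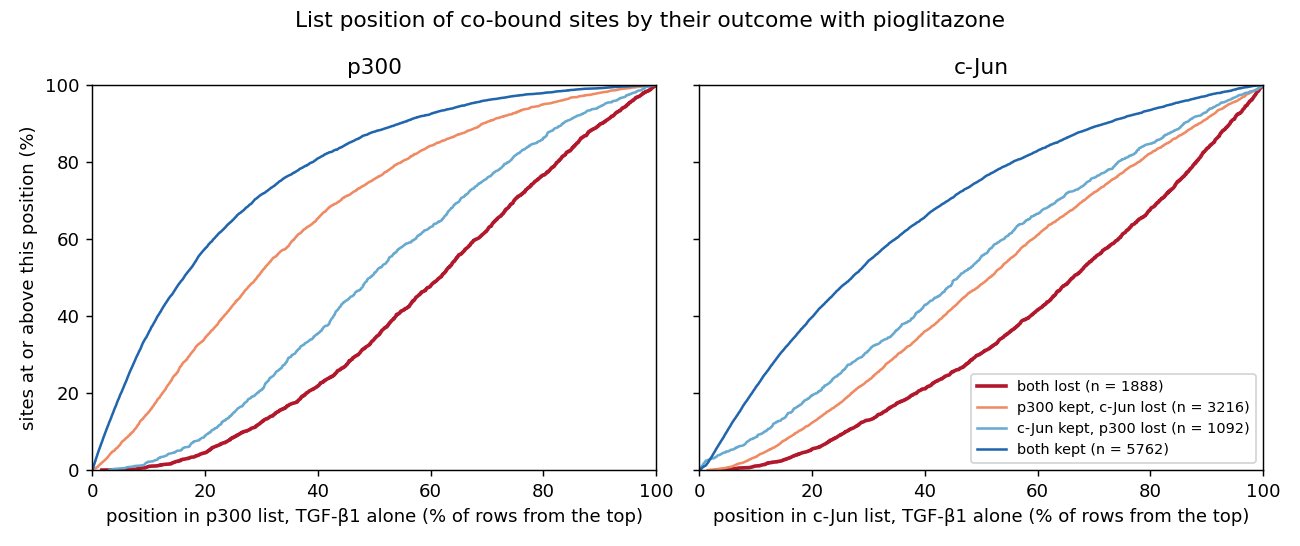
Cumulative share of co-bound sites (y axis, %) at or above a given position in the p300 list (left) and the c-Jun list (right) under TGF-β1 alone (x axis, % of rows from the top), with 1 line for each of the 4 outcomes with pioglitazone. The line of the 1888 sites losing both lies lowest over most of both panels, with medians of 61.7% for p300 and 66.3% for c-Jun, and the line of the 5762 sites keeping both lies highest.

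The sites varied among themselves. Among the 1888, 1038 lay in the lower 50% of both lists, 278 in the upper 50% of the p300 list only, 209 in the upper 50% of the c-Jun list only and 363 in the upper 50% of both. The p300 and c-Jun positions of a site went together, with rho 0.488 across the 1888 sites losing both and 0.528 across the 5762 sites keeping both.

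Position in the p300 list set the shares apart more than position in the c-Jun list near the top. Where p300 stood in the first 20% of its list, few sites lost both, whatever the position of c-Jun. The share was 1.30% (0.874 to 1.86) of 2227 sites with c-Jun also in its first 20%, and 1.28% (0.156 to 4.55) of 156 sites with c-Jun in its last 20%. Where p300 stood between 20% and 40% of its list, the share stayed between 9.07% and 12.4% over all 5 steps of the c-Jun list. Further down the p300 list, the share differed by c-Jun position. In the last 20% of the p300 list, 1 of 30 sites with c-Jun in its first 20% lost both, 3.33% (0.0844 to 17.2), against 240 of 389 sites with c-Jun in its last 20%, 61.7% (56.7 to 66.6). Very few co-bound sites near the top of both lists lost both: 5 of 939 in the first 10% of both lists did so, 0.532% (0.173 to 1.24). These 5 were 0.265% of the 1888 sites losing both.

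**Figure D2:**
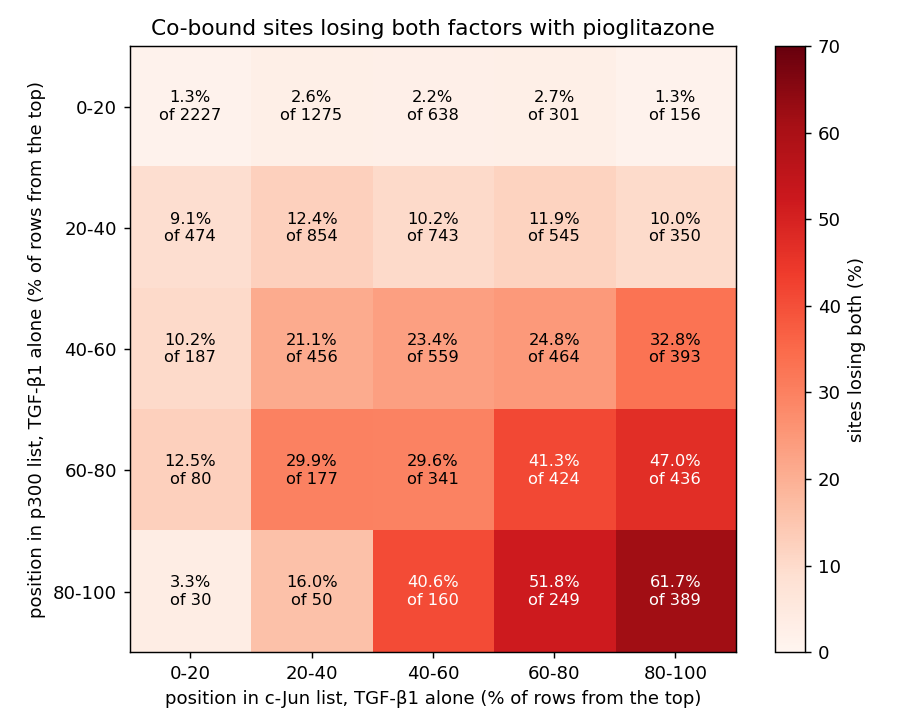
Share of co-bound sites losing both factors with pioglitazone (colour and upper number in each cell, %, with the number of co-bound sites below it), by position in the p300 list (rows) and the c-Jun list (columns) under TGF-β1 alone, in 20% steps from the top. The top row stays between 1.28% and 2.66%, and the bottom row runs from 3.33% at the left to 61.7% at the right.

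The leading sites were ranked by the mean of their positions in the p300 and c-Jun lists under TGF-β1 alone. All positions are on mm9, counted from 1. The files name no genes and no mm9 annotation was used here, so sites are given by position without gene names, and no sequence is shown. The first was chr6:91438543-91438836. It had no p300 or c-Jun peak with pioglitazone, against row 2094 of the p300 list and row 662 of the c-Jun list under TGF-β1 alone. With pioglitazone, a p300 peak lay 116 bp from its edge and the closest c-Jun peak 74138 bp off. With pioglitazone, p300 was thus listed close beside this site and c-Jun was not.

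The second site was chr19:10118219-10118494, at p300 row 2667 and c-Jun row 656 under TGF-β1 alone, with p300 1137 bp and c-Jun 30684 bp away with pioglitazone. The third, chr10:61762760-61763050, was at p300 row 1894 and c-Jun row 1161, with gaps of 98 bp for p300 and 39399 bp for c-Jun with pioglitazone. These 3 leading sites each had p300 listed nearby with pioglitazone and c-Jun at least 30684 bp away. The next were clear of both factors over a longer stretch. At chr6:86422208-86422459, at p300 row 2770 and c-Jun row 799, the gaps with pioglitazone were 40798 bp for p300 and 67441 bp for c-Jun. At chr19:5810172-5810420, at p300 row 2446 and c-Jun row 1119, both peak centres coincided under TGF-β1 alone, and the gaps with pioglitazone were 6372 bp for p300 and 66280 bp for c-Jun. At chr6:127941584-127941905, at p300 row 3713 and c-Jun row 626, they were 123288 bp for p300 and 17233 bp for c-Jun. The site chr8:27923704-27924000, at p300 row 3935 and c-Jun row 1571, had no p300 peak within 65023 bp and no c-Jun peak within 65686 bp with pioglitazone. Of the first 10 sites, it and chr6:86422208-86422459 were the ones farthest from any peak with pioglitazone.

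The other sites of the first 10 had peaks of both factors with pioglitazone within 10 kb. The site chr10:57783650-57783922, at p300 row 4406 and c-Jun row 1132, had p300 at 1012 bp and c-Jun at 1226 bp with pioglitazone. The site chr2:32727086-32727341, at p300 row 3017 and c-Jun row 1983, had p300 at 3860 bp and c-Jun at 3917 bp. The site chr10:3226048-3226340, at p300 row 2631 and c-Jun row 2348, had p300 at 1897 bp and c-Jun at 6190 bp. At all 3 of these, a site that kept both factors had its centre within 10 kb.

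Sites ranked 11 to 20 stood at 6.61% to 16.5% of the p300 list and 9.66% to 18.5% of the c-Jun list under TGF-β1 alone, and had a p300 peak with pioglitazone 3 to 7124 bp away and a c-Jun peak 29 to 8357 bp away. Of the first 20 sites, 4 had a p300 peak and 1 of them also a c-Jun peak with pioglitazone within 500 bp. At 11 of the 20, a site that kept both factors lay 1242 to 7324 bp away, centre to centre, and in 7 of these 11 it stood higher than the lost site in both lists under TGF-β1 alone. The 20 sites fell on 8 chromosomes, 5 of them on chromosome 6 and 4 on chromosome 10. Chromosomes 6 and 10 held 726 and 794 of the 11958 co-bound sites. These stood high, with medians at 23.7% and 19.9% of the p300 list and 30.7% and 24.2% of the c-Jun list.

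Over all 1888 sites, the median gap to the nearest peak of either factor with pioglitazone was 12192.5 bp (10958 to 13398), and 845 sites, 44.8% (42.5 to 47.0), had one within 10 kb. The median gap was 16056 bp to the nearest p300 peak (14592 to 17543) and 30804 bp to the nearest c-Jun peak (28338 to 33133). With pioglitazone, the p300 list held 21994 peaks and the c-Jun list 13325, so the p300 and c-Jun gaps are not directly comparable. A p300 or c-Jun peak with pioglitazone lay within 500 bp of 183 sites, 9.69% (8.40 to 11.1), and within 1000 bp of 244, 12.9% (11.4 to 14.5). For p300 alone 144 sites had such a peak within 500 bp, for c-Jun alone 77, and 38 had both. Near misses were less frequent at sites low in both lists than at sites high in both. In the upper 50% of both lists, 46 of 363 sites had a pioglitazone peak within 500 bp, 12.7% (9.43 to 16.5). In the lower 50% of both, 73 of 1038 did, 7.03% (5.55 to 8.76). Sites in the upper 50% of 1 list only are in neither count. No pioglitazone peak lay within 50 kb of 304 sites, 16.1%, and the longest gap was 1.26 Mb.

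**Figure D3:**
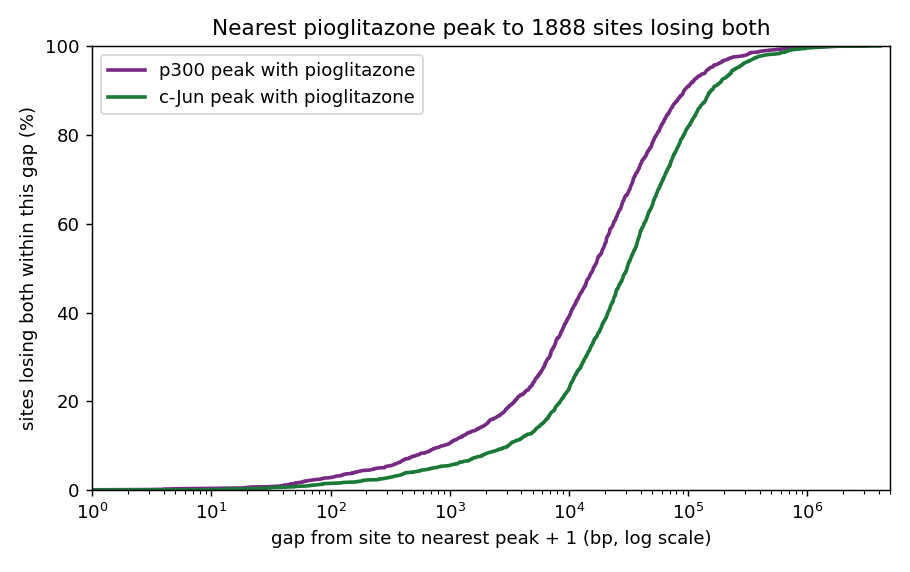
Cumulative share of the 1888 sites losing both (y axis, %) by the gap from the site's edge to the nearest p300 or c-Jun peak with pioglitazone (x axis, bp + 1, log scale). The p300 line lies left of the c-Jun line, with medians of 16056 and 30804 bp, and the p300 list is the longer.

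At the edge of the overlap rule, 19 sites had a pioglitazone peak within 20 bp without overlap. The closest of them were chr5:39249349-39249620 and chr7:104534765-104535132, which touched a p300 peak, chr6:86534931-86535394, which touched a c-Jun peak, and chr9:23269465-23269785 and chr4:136724795-136725164, with p300 gaps of 2 and 3 bp. Just outside the rule, 20 sites were joined to a single pioglitazone peak by at most 20 bp. The smallest overlaps were 1 bp with p300 at chr18:22051386-22051963, 1 bp with c-Jun at chr9:50708110-50708656, 4 bp with p300 at chr14:49685858-49686376, 4 bp with c-Jun at chr8:59966369-59966890 and 5 bp with p300 at chr2:80478877-80479388. The edge inside the rule and the edge outside it thus held about as many sites.

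The surroundings of the sites under TGF-β1 alone played no part in the rule. Another p300 peak lay within 10 kb of 849 of 1888 sites losing both, 45.0% (42.7 to 47.2), and of 49.5% (48.2 to 50.8) of the 5762 sites keeping both. Peaks low in the lists had fewer neighbours in general, and at matched position the order turned. Within 10% steps of both lists, sites losing both had such a neighbour more often than sites keeping both, by 13.4 percentage points (10.2 to 16.7), or by 6.71 points (1.85 to 11.6) with all lists shortened to their upper 50%. The same difference was 5.24 points (2.08 to 8.41) against sites losing only c-Jun and 3.87 points (0.0764 to 7.66) against sites losing only p300. In the lower 50% of both lists, without finer steps, the share was 36.8% of 1038 sites losing both and 38.6% of 607 sites losing only c-Jun. It was 31.5% of 330 sites losing only p300 and 29.2% of 367 sites keeping both there. For another c-Jun peak within 10 kb, the shares were 27.2% at sites losing both and 32.3% at sites keeping both, and the difference within steps was 8.16 points (5.16 to 11.2).

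Near the top of the lists, of the other outcomes, the sites losing only p300 had shares nearest to those of the sites losing both. In the first 20% of both lists, 24 of 29 sites losing both had another p300 peak within 10 kb, 82.8% (64.2 to 94.2). The share was 79.2% (65.0 to 89.5) of 48 sites losing only p300, 66.1% (60.5 to 71.4) of 301 sites losing only c-Jun and 58.0% (55.7 to 60.3) of 1849 sites keeping both. Whether a neighbouring site kept both factors is read from the pioglitazone lists, which also chose the sites. Comparisons by such neighbours are therefore descriptions. In the first 20% of both lists, 13 of the 29 sites losing both had a site that kept both factors within 10 kb, 44.8% (26.4 to 64.3). The share was 27.1% (15.3 to 41.8) of the sites losing only p300, whose interval overlaps that of the sites losing both, 19.9% (15.6 to 24.9) of the sites losing only c-Jun and 18.7% (16.9 to 20.5) of the sites keeping both. In the lower 50% of both lists the shares on this measure were 5.59% (4.27 to 7.16) of 1038 sites losing both and 5.72% (3.58 to 8.61) of 367 sites keeping both. Over the whole lists and within 10% steps, a site that kept both factors lay within 10 kb more often at sites losing both than at sites keeping both, by 4.41 points (2.35 to 6.46). Against the sites that lost only c-Jun this difference was 1.96 points (-0.025 to 3.95), and against those that lost only p300 it was -0.37 points (-2.76 to 2.01), and both intervals include 0. Of the 171 sites losing both that had such a neighbour, the nearest one stood higher in both lists at 124, 72.5% (65.2 to 79.1). The same held at 70.6% (61.9 to 78.4) of such sites losing only p300, 59.8% (55.0 to 64.5) of those losing only c-Jun and 36.8% (33.4 to 40.3) of those keeping both. These shares are not adjusted for list position. Sites keeping both stood highest by median in both lists, so the order of these shares follows in part from the classes. Where 2 sites keeping both are each other's nearest, at most 1 can stand higher, so their share is no like reference. Whether the authors' caller filtered peaks against their local surroundings is not stated in the labels, and its part in these differences was not tested.

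**Figure D4:**
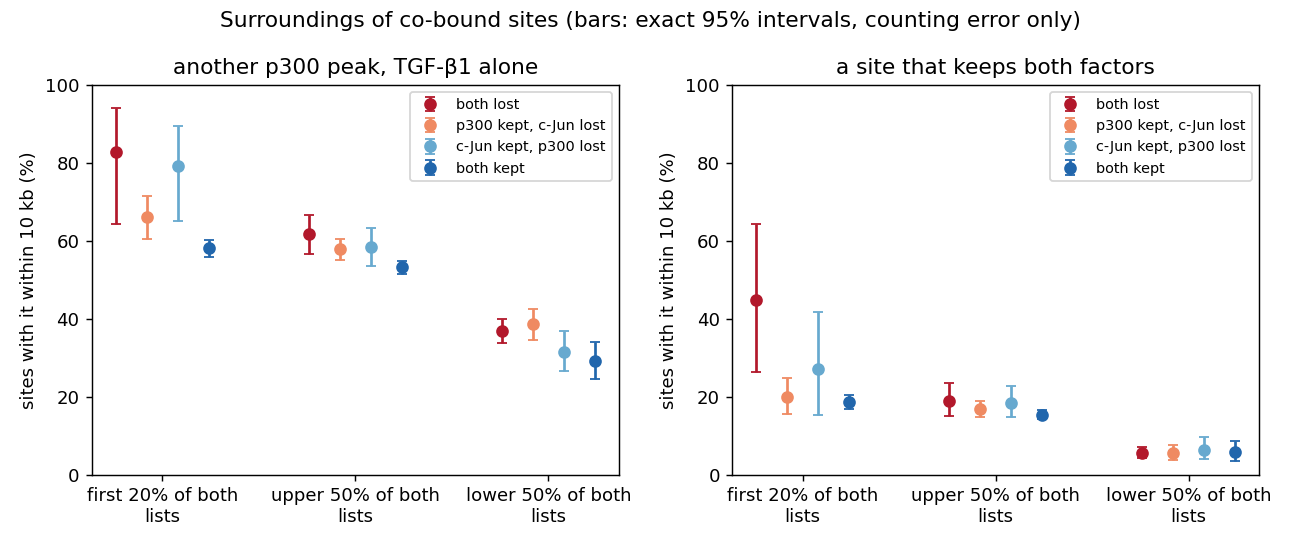
Share of co-bound sites (y axis, %) with another p300 peak under TGF-β1 alone within 10 kb (left) and with a site that kept both factors within 10 kb (right), for the 4 outcomes with pioglitazone, in 3 parts of the lists (the first 20% lies inside the upper 50%). Points are shares and bars exact 95% intervals. The right panel draws on the pioglitazone lists, which also chose the sites. In the first 20% of both lists the sites losing both stand at 82.8% and 44.8%, the sites losing only p300 at 79.2% and 27.1%, and the sites keeping both at 58.0% and 18.7%.

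Few domains held more than 1 site losing both. When peak centres of all 4 lists at most 10 kb apart were joined into domains, the 1888 sites lay in 1841 domains, of which 1795 held 1 such site, 45 held 2 and 1 held 3. Of the sites, 790 were alone, with no other peak of any list in their domain, 41.8%. Another 220 sites, 11.7%, lay in 199 domains that held further peaks under TGF-β1 alone and no peak of either factor with pioglitazone. The remaining 878 sites, 46.5%, shared their domain with at least 1 pioglitazone peak. Among sites with another co-bound site within 10 kb, the nearest one had also lost both at 68 of 391 sites losing both, 17.4% (13.8 to 21.5), and at 11.3% (9.71 to 13.1) of 1433 sites keeping both. Within 20% steps of the neighbour's own list positions, the difference was -0.92 points (-4.74 to 2.90), so a clustering of loss beyond list position was not detectable. Pairs that are each other's neighbours enter this comparison from both sides.

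The domain with 3 such sites lay at chr10:24081222-24094099. It held 0 p300 and 0 c-Jun peaks with pioglitazone, against 3 p300 and 3 c-Jun peaks under TGF-β1 alone. Its sites stood at 76.7%, 52.7% and 40.4% of the p300 list and at 88.8%, 48.3% and 30.9% of the c-Jun list, from left to right, and the nearest pioglitazone peak to any of them was 14014 bp away. All 3 p300 and 3 c-Jun peaks of the domain were those of the 3 sites, so their loss follows from the rule. The rightmost site was in the upper 50% of both lists, and the other sites were below that in at least 1 list. Of the domains with 2 such sites, the 4 with most p300 peaks still listed p300 peaks with pioglitazone. At chr5:31904797-31969040 the counts were 7 p300 and 3 c-Jun peaks with pioglitazone, against 10 p300 and 8 c-Jun peaks under TGF-β1 alone. At chr2:129001472-129038746 they were 4 p300 and 0 c-Jun peaks with pioglitazone, against 8 p300 and 2 c-Jun peaks. At chr6:15670501-15708721 they were 5 p300 and 2 c-Jun peaks with pioglitazone, against 7 p300 and 6 c-Jun peaks. At chr8:26120200-26157327 they were 5 p300 and 0 c-Jun peaks with pioglitazone, against 7 p300 and 4 c-Jun peaks. Both the chromosome 2 and the chromosome 8 domain listed no c-Jun peak with pioglitazone and fewer p300 peaks than under TGF-β1 alone. In all 4 domains, part of the fall follows from the rule, since each was chosen for its 2 sites losing both. On chromosome 2, the 2 c-Jun peaks under TGF-β1 alone were those of the 2 sites.

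By chromosome, the X had the highest share of co-bound sites losing both, leaving aside the Y with 1 co-bound site. On X 60 of 247 co-bound sites lost both, 24.3% (19.1 to 30.1), against 15.6% (15.0 to 16.3) on all other chromosomes together. X sites also stood lower, with a median at 45.4% of the p300 list and 72.8% of the c-Jun list, against 28.0% and 40.7% elsewhere. Within 10% steps of both lists the difference was -0.93 points (-5.77 to 3.92). Chromosome 19 had the lowest share, 11.1% (8.13 to 14.7), and its difference within steps was 0.0012 points (-3.01 to 3.01). Chromosome 10, where 115 of 794 co-bound sites lost both, 14.5% (12.1 to 17.1), was below the 15.9% of the other chromosomes as listed and 3.91 points above them within steps (1.56 to 6.27), or 0.68 points (-1.92 to 3.27) with all lists shortened to their upper 50%. Its co-bound sites stood high, with medians at 19.9% of the p300 list and 24.2% of the c-Jun list. Chromosome 10 was the only one of 20 chromosomes whose interval within steps did not include 0 in the whole lists. List steps can divide stretches of rows that run in genomic order. The part of this in the differences between chromosomes was not tested.

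**Figure D5:**
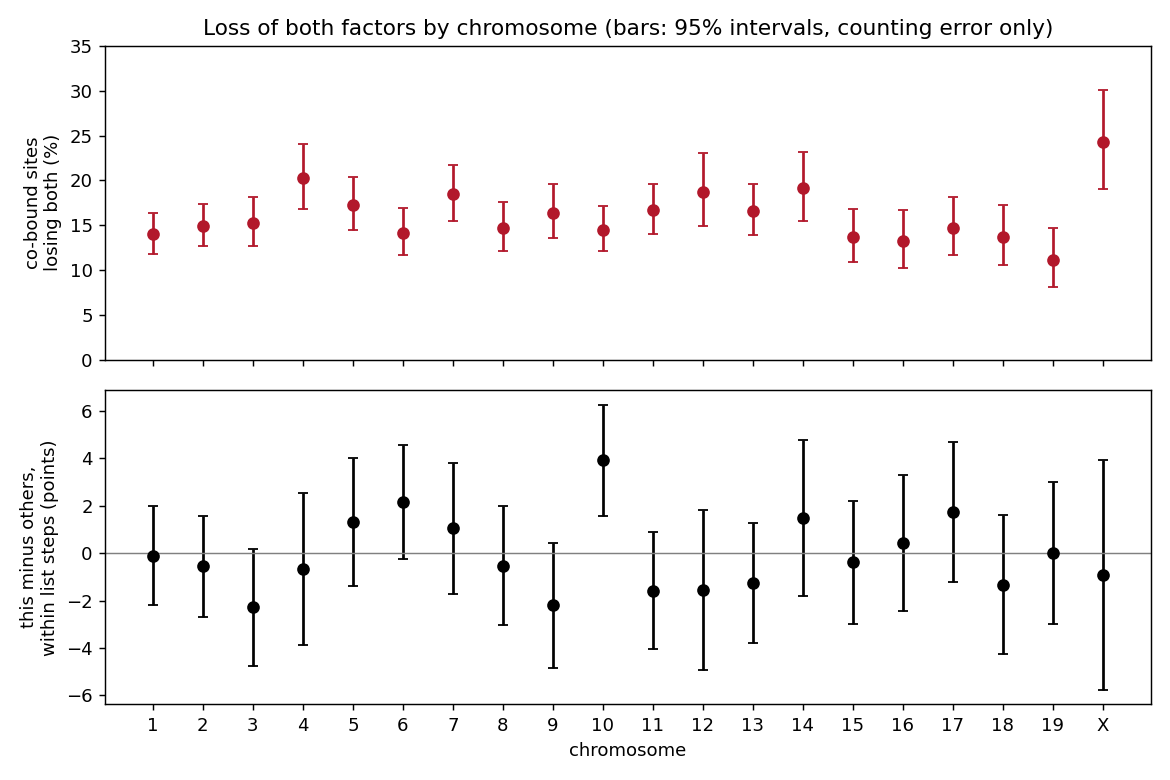
Share of co-bound sites losing both factors on each chromosome (upper panel, %) and the difference from all other chromosomes within 10% steps of both lists (lower panel, percentage points), with 95% intervals. The X stands highest in the upper panel at 24.3% and at -0.93 points in the lower, where chromosome 10 stands at 3.91.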

How the data were processed

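p300 and c-Jun ChIP-seq peak lists from 4 libraries of MS5 cells were used, 1 per antibody and treatment. A pooled input is among the 5 samples, and no file of it was used here. The submitters' processing notes name build mm9 and the tools HOMER, SAMtools 1.9 and Bowtie2 2.3.4.3. For peak calling, settings, filters and use of the input were not given in the sources used here. Each list was deposited with 1 row per peak, per library, in peaks of 1 width (227 bp for p300 and 235 bp for c-Jun with pioglitazone, 247 and 249 bp without it), and with a deposited score of 1 throughout.

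Sites, gaps, domains and list positions were computed in Python (version 3.11.15, numpy 2.4.6, pandas 2.3.3, scipy 1.17.1). Shares carry exact (Clopper-Pearson) 95% intervals, medians order-statistic intervals, and differences within list steps Mantel-Haenszel intervals. Where a site held several peaks of a list, the first row was used, and spacing was compared at sites with 1 overlapping pair. With 1 library per group no test was possible. The functions were tested on simulated lists with known losses. The sites and measures were chosen with earlier results of these data known. Sites are named by rule: the first 20 by mean position, the 5 domains with most sites (ties broken by p300 peaks) and the 5 sites nearest each side of the overlap rule. The planned AP-1 motif, transcription start and gene list comparisons were not run, because the genome tables used here are of GRCm38 and positions are not converted between builds.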

Additional observations from a re-analysis of the deposited data

How the results depend on the processing

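Most values followed how much of each list was used. The number of sites losing both was 1888 as reported, 890 with all 4 lists shortened to their upper 50%, 363 with only the lists under TGF-β1 alone so shortened, and 887 at equal list lengths, since fewer rows enter. In that order the share of co-bound sites losing both was 14.5%, 5.91% and 9.65%. It was 16.9% where peaks had to overlap by 50% of both and 14.3% where sites with a pioglitazone peak within 500 bp were not counted as lost. The share of sites gaining both was 5.06% at 50% overlap and 2.86% where no peak under TGF-β1 alone lay within 500 bp. It was 7.20% at equal lengths and 15.3% with only the lists under TGF-β1 alone shortened. With only those lists shortened, gain exceeded loss, but those lists were then shorter than the pioglitazone lists.

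Median positions in the p300 list were 32.2%, 31.5% and 44.5% under the 3 shortenings in the order above and 58.3% at 50% overlap, and in the c-Jun list 33.4%, 29.5%, 47.0% and 64.2%. The share with a pioglitazone peak within 1 kb was 8.31%, 19.3%, 17.7% and 23.8%, and 3.58% with the 500 bp limit. The median centre distance was 34 and 36 bp under the first and second shortening and 40 bp at 50% overlap. The share with another p300 peak within 10 kb was 37.4% and 48.8% under the first and second shortening. On X, 10.6% and 11.9% of co-bound sites lost both with only the lists under TGF-β1 alone shortened and at equal lengths. Domains with several such sites numbered 46 as reported, and 10, 3 and 15 under the shortenings.

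The difference in p300 neighbours between sites losing both and sites keeping both stayed above 0 in all 7 alternatives, from 6.71 points (1.85 to 11.6) with all lists shortened to 21.4 points (16.0 to 26.9) with only the lists under TGF-β1 alone shortened. For a neighbouring site that kept both, the difference ran from 3.81 points (1.72 to 5.91) with the 500 bp limit to 12.4 points (8.31 to 16.6) with only the lists under TGF-β1 alone shortened. With all lists shortened, the difference in close centres turned to 6.27 points (1.27 to 11.3) and that of chromosome 10 was 0.68 points (-1.92 to 3.27); the cause was not tested. Steps of 5%, chosen after seeing the data, gave 14.2 points (10.8 to 17.5). Restricting sites to at most 1 peak per list left every value within its interval. The motif and transcription start alternatives were not run. No paired analysis was possible because each group is 1 library and the labels carry no replicate numbers. Depth is unknown, so absence from a list is not absence of binding.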
